A study of Homo sapiens with 12 samples.

Results

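Aminoacyl-tRNA synthetases are the enzymes that join each amino acid to its own tRNA, the step that decides which amino acid a codon stands for. Human cells keep 2 largely separate sets of them. One works in the cytosol beside the ribosomes that read nuclear mRNAs, and the other is imported into mitochondria, where it serves the ribosomes that make the few proteins encoded by mitochondrial DNA. Many cytosolic synthetase genes are known targets of ATF4, the transcription factor of the integrated stress response, which is switched on when amino acids run short or when protein folding fails. Their output in cells treated with an inhibitor of the ERK pathway was examined here at 2 levels, mRNA in the cytoplasmic lysate and ribosomes on that mRNA.

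The members were 35 synthetase genes chosen by symbol from the 15798 genes of the deposited table. They comprised 19 genes for cytosolic enzymes and 16 for mitochondrial ones. GARS1 and KARS1, each of which encodes the enzyme of both compartments, were placed with the cytosolic genes. HCT116, an established human line from a colorectal carcinoma, had been given trametinib at 100 nM for 24 h, which blocks MEK and thereby ERK, while control dishes received DMSO, its solvent. Both groups were the same line with no genetic change, so the results describe 1 line at 1 dose and 1 time. All dishes received cycloheximide, which stalls ribosomes, shortly before lysis. From each lysate came a library of randomly fragmented cytoplasmic RNA (input) and a library of the fragments that ribosomes protected from RNase I (footprints), which gave 4 groups of 3 libraries, an input and a footprint group for each treatment. Nothing in the labels says whether the 3 dishes of a group came from separate cultures, so p-values measure the spread between these dishes only.

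An input library held 2276693 to 2845568 counts in open reading frames and a footprint library 10127477 to 19181588, so input was the less deeply measured level. The median standard error (SE) of a log2 change over the tested members was 0.188 in input, 0.145 in footprints and 0.257 in ribosome density. DUSP6, a gene driven by ERK, had a log2 change of -7.63 in input and -8.27 in footprints, which checks the labels of treatment. Markers of epithelium such as EPCAM and KRT19 were counted in every library, and so was the colon marker CDX2, whereas CDX1, VIL1 and LGALS4 had at most 2 counts in any library. The 8 markers of blood, endothelium and fibroblasts together took between 0.000629% and 0.00365% of counts. PTPRC, CD3E and COL1A2 had at most 1 count in any library, but COL3A1 ranged from 0 to 328 counts and 2 of the 3 markers that could be tested were higher with trametinib in both assays. Their part in the results below was not tested. In bulk samples fewer cells and less RNA per cell cannot be told apart.

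The promoters of the members were searched for the element through which ATF4 acts. The C/EBP-ATF response element is the DNA word that ATF4 binds with a C/EBP partner, and its core was searched as TGATGNAA on either strand, from 250 bases before to 50 bases after each transcript start in RefSeq (GRCh38.p14). An entry was found for 30 of the 35 members, and LARS1, VARS1, YARS1, AARS2 and VARS2 had none. The core was present in 7 of 16 cytosolic genes (43.8%) and in 1 of 14 mitochondrial genes (7.14%), against 4.46% of all 27305 genes with a promoter entry and 3.08% of those in the deposited table. Of the listed stress response genes that are not synthetases, 19 had an entry, and 4 of these (21.1%) held the core. A match describes the letters in the window and does not show that a factor binds there. All 8 matches are shown, and the 7 cytosolic genes among them recur in the comparisons below. Each is printed in the direction of transcription, 5′ to 3′, with the core or its reverse complement in capitals.
AARS1 (alanine), chr16:70289675-70289704, minus strand: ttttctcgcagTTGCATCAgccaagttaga
CARS1 (cysteine), chr11:3057407-3057436, minus strand: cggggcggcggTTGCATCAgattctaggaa
GARS1 (glycine), chr7:30594834-30594863, plus strand: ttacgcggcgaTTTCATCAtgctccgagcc
IARS1 (isoleucine), chr9:92293692-92293721, minus strand: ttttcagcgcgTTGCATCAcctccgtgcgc
MARS1 (methionine), chr12:57488053-57488082, plus strand: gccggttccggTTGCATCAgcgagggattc
NARS1 (asparagine), chr18:57621804-57621833, minus strand: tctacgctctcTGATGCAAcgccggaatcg
TARS1 (threonine), chr5:33440956-33440985, plus strand: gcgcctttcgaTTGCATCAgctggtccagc
YARS2 (mitochondrial tyrosine), chr12:32756076-32756105, minus strand: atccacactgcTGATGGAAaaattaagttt
The word TTGCATCA stood in 5 of the 7 cytosolic windows, its reverse complement TGATGCAA in NARS1 and TTTCATCA in GARS1. Its first base lay 2 bases before the transcript start in CARS1, 4 before it in MARS1, 13 before it in IARS1 and 33 before it in GARS1, whereas in AARS1 it lay 187 bases before the start of the transcript whose window holds it. In TARS1 and NARS1 it began 3 and 15 bases after the start. The 7 cytosolic genes were all among the 12 that are commonly described as induced by ATF4 (AARS1, CARS1, EPRS1, GARS1, IARS1, LARS1, MARS1, NARS1, SARS1, TARS1, WARS1 and YARS1). Of these 12, 10 had a promoter entry. None of the 6 other cytosolic genes with an entry held the core.

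The first comparison asked how the mRNA of the synthetases changed when MEK was inhibited. Most cytosolic synthetase mRNAs were lower with trametinib, and few mitochondrial ones were. Of the 19 cytosolic genes, 13 were lower and 1, QARS1, was higher at an adjusted p-value under 0.05 in edgeR's quasi-likelihood test, beside 16.8% of all 10663 genes tested that were lower and 15.4% that were higher. The median log2 change of the 19 was -1.01, and that of all genes was -0.00. Of the 15 mitochondrial genes that could be tested, 2 were lower and 0 were higher, and their median was -0.10. The remaining mitochondrial gene, VARS2, the valine enzyme, had between 0 and 15 counts per library and did not pass the filter on low counts. In 14 of the 19 cytosolic and 3 of the 15 mitochondrial genes every trametinib input library lay below every DMSO input library, as it did in 23.2% of all genes.

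Footprints showed the same order of the 2 compartments at greater depth. Of the cytosolic genes 16 were lower and 0 were higher, with a median log2 change of -0.89, beside 25.6% of all genes lower and 23.9% higher with a median of -0.01. Of the mitochondrial genes 5 were lower (AARS2, EARS2, MARS2, NARS2 and SARS2) and 1, PARS2, was higher, with a median of -0.20. The groups did not overlap, with trametinib lower, in 17 cytosolic and 5 mitochondrial genes and in 30.3% of all genes. Together the cytosolic genes took 1.16%, 0.758% and 0.703% of all footprint counts in the DMSO libraries and between 0.459% and 0.486% in the trametinib libraries. The mitochondrial genes took between 0.060% and 0.0739% of footprint counts in all 6 libraries, with no separation of the treatments.

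**Figure D1:**
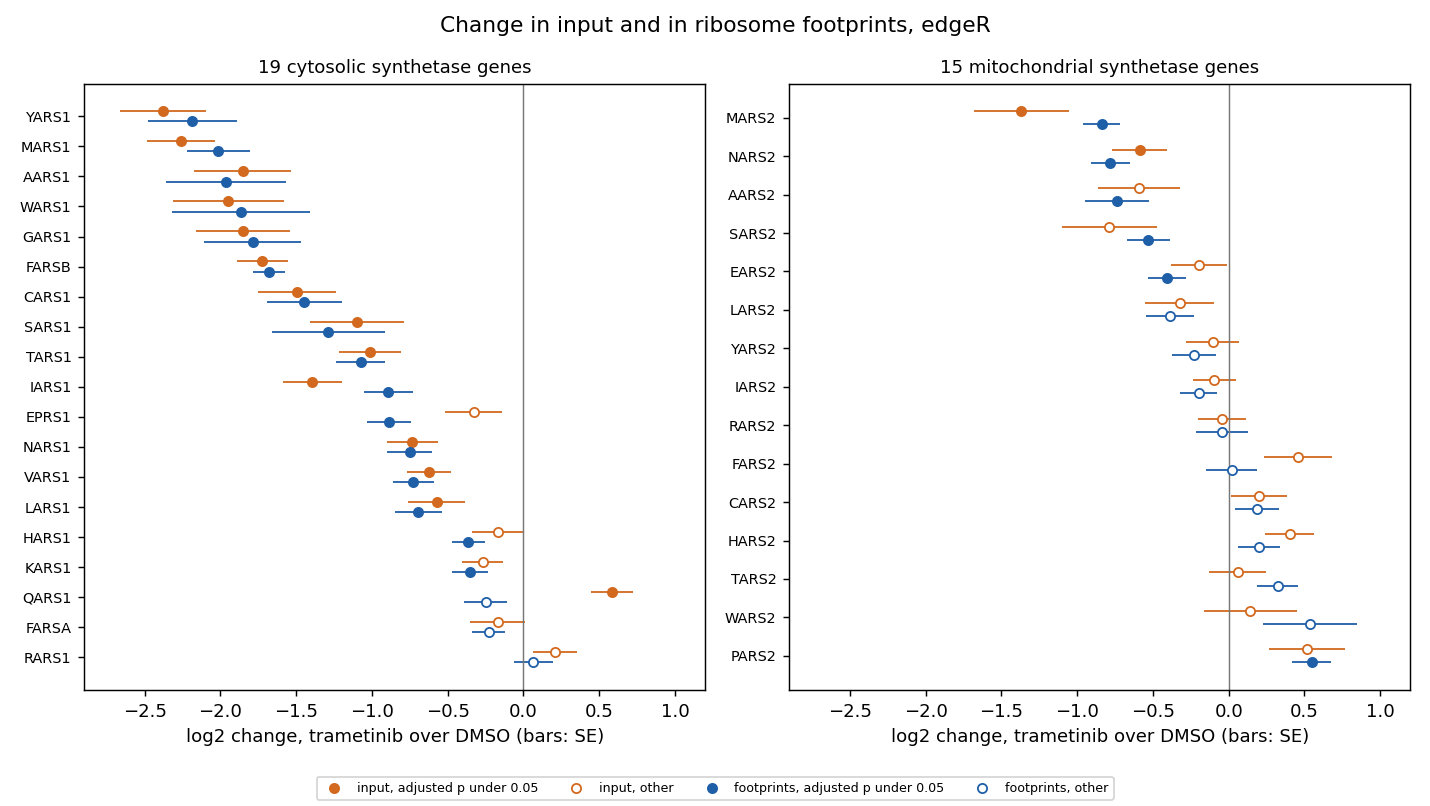
Log2 change of trametinib over DMSO (horizontal axis, bars are the SE) for the 19 cytosolic and the 15 tested mitochondrial synthetase genes (rows), with input in orange and footprints in blue; filled points passed an adjusted p-value of 0.05. Most cytosolic genes lie left of 0 and as low as -2.38 in input for YARS1, whereas the mitochondrial genes lie on both sides of 0 between -1.37 and 0.55.

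With all libraries the deepest falls were those of YARS1, MARS1, WARS1, AARS1 and GARS1, all on the list of ATF4-induced genes. Without DMSO replicate 1 the order changed, and FARSB, which is not on the list, came next after MARS1 and YARS1 in both assays (log2 change -1.64 in input and -1.69 in footprints), ahead of WARS1 (-1.21 and -0.97). The following values are counts divided by library size (CPM), after the libraries of 1 assay had been scaled to each other. YARS1, the tyrosine enzyme, was at 461, 227 and 190 CPM in the DMSO input libraries of replicates 1, 2 and 3 and at 59.9, 52.2 and 56.6 CPM in the trametinib ones. Its footprints were at 806, 407 and 339 CPM in DMSO and at 115, 110 and 117 CPM in trametinib. No library of one treatment reached the range of the other, and the log2 change of YARS1 was -2.38 ± 0.29 (SE) in input and -2.18 ± 0.29 in footprints (edgeR, adjusted p = 4.81e-05 and 0.000395).

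MARS1, the methionine enzyme, which also charges the tRNA that starts every protein, was at 392, 215 and 231 CPM in DMSO input and at 55.8, 58.8 and 60.1 CPM in trametinib input. Its footprints were at 336, 220 and 183 CPM in DMSO and at 61.8, 60.4 and 60.7 CPM in trametinib. The 3 trametinib values were close together while DMSO replicate 1 stood above the other two, a pattern that recurred in the next genes. The log2 change of MARS1 was -2.26 ± 0.22 (SE) in input and -2.01 ± 0.21 in footprints (edgeR, adjusted p = 8.6e-06 and 9.62e-05).

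WARS1, the tryptophan enzyme, which interferons also induce, had footprints at 650, 183 and 182 CPM in DMSO and at 89.2, 92.0 and 97.5 CPM in trametinib. In input it was at 342, 117 and 111 CPM in DMSO and at 41.7, 50.9 and 55.3 CPM in trametinib. It was lower with trametinib in both assays (log2 change -1.95 ± 0.37 in input and -1.87 ± 0.45 in footprints, edgeR adjusted p = 0.00153 and 0.00874). Of the 12 interferon-stimulated genes listed, 8 could be tested, and 7 were higher in each assay. Among all genes tested, 15.4% were higher in input and 23.9% in footprints.

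AARS1, the alanine enzyme, had footprints at 1924, 736 and 584 CPM in DMSO and at 288, 270 and 272 CPM in trametinib, and its input was at 1310, 507 and 468 CPM in DMSO and at 205, 216 and 211 CPM in trametinib. GARS1, the glycine enzyme of both compartments, had footprints at 1668, 781 and 637 CPM in DMSO and at 300.0, 289 and 306 CPM in trametinib, and its input was at 1270, 585 and 432 CPM in DMSO and at 198, 205 and 231 CPM in trametinib. Both had log2 changes of -1.85 in input (SE 0.32 and 0.31), with -1.97 ± 0.39 in footprints for AARS1 and -1.79 ± 0.32 for GARS1, and all 4 changes passed the test (edgeR, adjusted p between 0.000633 and 0.00335). In both genes DMSO replicate 1 was far above the other two and the trametinib libraries were close together.

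**Figure D2:**
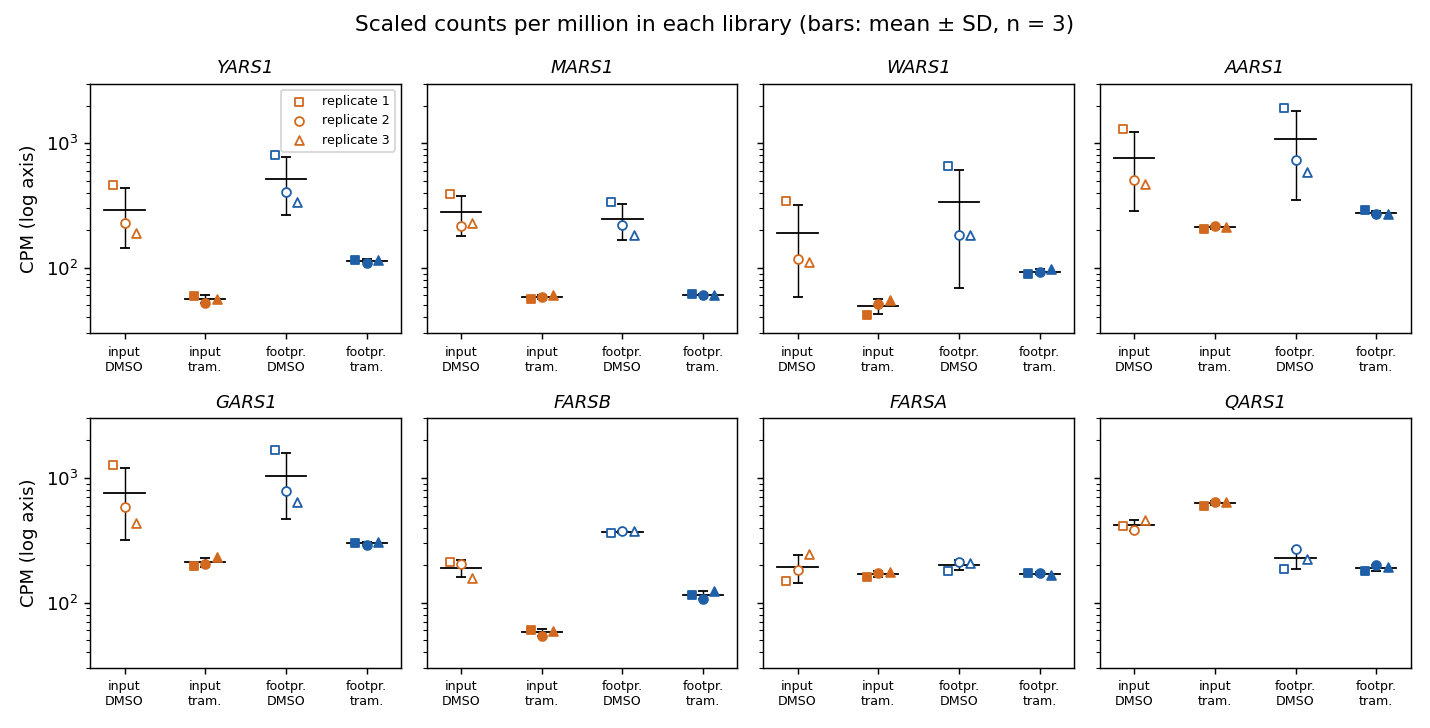
Scaled CPM on a log axis in each of the 12 libraries for 8 cytosolic synthetase genes; input is orange, footprints are blue, open symbols are DMSO, filled symbols are trametinib, symbol shape gives the replicate number and black bars give the mean ± SD of 3 libraries. YARS1, MARS1, WARS1, AARS1 and GARS1 were highest in DMSO replicate 1 (open squares) in both assays, and FARSB fell without such a spread in footprints. With all libraries neither FARSA nor QARS1 was called lower in either assay, but both were in footprints without DMSO replicate 1.

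By list, 11 of the 12 ATF4-induced genes were lower in input (median log2 change -1.44, not called: EPRS1) and 12 of 12 were lower in footprints (median -1.37). Of the other 7 cytosolic genes, FARSB and VARS1 were lower and QARS1 was higher in input (median -0.17), and FARSB, HARS1, KARS1 and VARS1 were lower in footprints (median -0.35). Among all genes tested, 16.8% were lower and 15.4% higher in input, and 25.6% were lower in footprints. The list rests on common descriptions and was drawn up with earlier results of these data known, so its counts are no independent evidence. The remaining members of the list were CARS1 (cysteine), SARS1 (serine), TARS1 (threonine), NARS1 (asparagine) and LARS1 (leucine), with log2 changes in footprints of -1.45, -1.29, -1.07, -0.75 and -0.69. RARS1, the arginine enzyme, had log2 changes of 0.21 in input and 0.06 in footprints and did not pass the test in either.

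FARSB had the largest fall of the cytosolic genes outside the list. The cytosolic phenylalanine enzyme is built of 2 kinds of subunit, the catalytic one from FARSA and the other from FARSB. FARSB was at 213, 203 and 156 CPM in DMSO input and at 60.3, 54.0 and 58.8 CPM in trametinib input. Its footprints were at 360, 374 and 374 CPM in DMSO and at 114, 107 and 125 CPM in trametinib, with no elevation in DMSO replicate 1. Its log2 change was -1.72 ± 0.17 (SE) in input and -1.68 ± 0.11 in footprints (edgeR, adjusted p = 7.31e-06 and 5.47e-06).

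FARSA, its partner subunit, was at 150, 181 and 244 CPM in DMSO input and at 160, 173 and 177 CPM in trametinib input, and its footprints were at 180, 213 and 209 CPM in DMSO and at 174, 173 and 167 CPM in trametinib. Its log2 changes of -0.17 ± 0.18 and -0.23 ± 0.11 did not pass the test (edgeR, adjusted p = 0.497 and 0.11). The footprint CPM of FARSB over that of FARSA, not corrected for gene length, was 2.01, 1.76 and 1.79 in the DMSO dishes and 0.658, 0.619 and 0.749 in the trametinib dishes. The same ratio in input was 1.06 ± 0.394 (SD, n = 3) in DMSO and 0.340 ± 0.0328 (SD, n = 3) in trametinib. The ratios did not overlap between treatments in either assay, and a two-sided exact permutation test gave p = 0.1, the smallest that 3 against 3 dishes allow.

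Of the 7 enzymes that join the multisynthetase complex, a cytosolic assembly of synthetases with scaffold proteins, 3 were lower in input (IARS1, LARS1 and MARS1), 1 was higher (QARS1), and 5 were lower in footprints (EPRS1, IARS1, KARS1, LARS1 and MARS1), beside 16.8% of all genes lower and 15.4% higher in input and 25.6% lower in footprints. Without DMSO replicate 1 the numbers lower were 2 in input and 6 in footprints, beside 18.0% and 30.5% of all genes. Their log2 changes in input ran from -2.26 to 0.58. KARS1, the lysine enzyme of both compartments, was at 329, 331 and 295 CPM in DMSO input and at 262, 272 and 259 CPM in trametinib input, and its footprints were at 304, 313 and 377 CPM in DMSO and at 257, 257 and 266 CPM in trametinib. The change was small, -0.27 ± 0.14 in input (edgeR adjusted p = 0.147) and -0.35 ± 0.12 in footprints (edgeR adjusted p = 0.0334). Of the 2 genes that serve both compartments, GARS1 thus had a log2 change of -1.79 and KARS1 of -0.35 in footprints, a difference that was not tested.

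Synthetases fall into 2 structural classes with unrelated catalytic folds. By class, 8 of 17 tested class I genes were lower in input and 9 in footprints, and 7 and 11 of 16 class II genes were, with median log2 changes in footprints of -0.41 and -0.63, beside 16.8% of all genes lower in input and 25.6% in footprints. EPRS1, which carries an enzyme of each class in 1 protein, is counted in neither.

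HARS1 and HARS2 encode the cytosolic and the mitochondrial histidine enzymes and lie head to head on chromosome 5, HARS1 at 140673035 to 140691537 on the minus strand and HARS2 at 140691430 to 140699305 on the plus strand in Gencode on GRCh38, so that the annotated genes overlap at their starts. Reads were counted in reading frames only, and the strand setting is not given in the sources used here. HARS1 was at 93.8, 117 and 90.2 CPM in DMSO input and at 91.8, 99.2 and 76.3 CPM in trametinib input, and its footprints were at 195, 199 and 230 CPM in DMSO and at 157, 167 and 161 CPM in trametinib. HARS2 was at 51.8, 67.4 and 55.6 CPM in DMSO input and at 76.0, 79.9 and 75.5 CPM in trametinib input, with footprints at 67.2, 81.4 and 92.9 CPM in DMSO and at 92.2, 85.0 and 100.1 CPM in trametinib. HARS1 was lower in footprints (log2 change -0.36 ± 0.11, edgeR adjusted p = 0.0217), and the log2 changes of HARS2, 0.40 ± 0.16 in input and 0.20 ± 0.14 in footprints, did not pass the test (edgeR adjusted p = 0.0761 and 0.257).
The CPM of HARS2 over that of HARS1, again without correction for length, was 0.386 ± 0.0350 (SD, n = 3) in DMSO footprints and 0.573 ± 0.0567 (SD, n = 3) in trametinib footprints. In input it was 0.582 ± 0.0324 and 0.874 ± 0.0998. The ratio was higher in every trametinib dish than in every DMSO dish in both assays (two-sided exact permutation p = 0.1, the smallest possible).

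Among the mitochondrial enzymes fewer changes were called. MARS2, the mitochondrial methionine enzyme, was at 23.7, 22.1 and 42.9 CPM in DMSO input and at 11.3, 7.90 and 14.9 CPM in trametinib input. Its footprints were at 27.6, 31.0 and 28.6 CPM in DMSO and at 17.3, 15.5 and 15.9 CPM in trametinib. The groups did not overlap, and the log2 changes were -1.37 ± 0.31 in input and -0.84 ± 0.12 in footprints (edgeR, adjusted p = 0.00491 and 0.000614).

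NARS2, the mitochondrial asparagine enzyme, was at 46.0, 40.6 and 38.5 CPM in DMSO input and at 27.1, 30.3 and 25.9 CPM in trametinib input, and its footprints were at 41.8, 39.3 and 38.8 CPM in DMSO and at 24.4, 19.8 and 25.6 CPM in trametinib. It was lower in both assays (log2 change -0.59 ± 0.18 and -0.78 ± 0.13, edgeR adjusted p = 0.025 and 0.00128). The methionine and asparagine enzymes were thus the mitochondrial ones called in both assays, though NARS2 lost its input call in DESeq2 and without DMSO replicate 1. MARS1 and NARS1 of the cytosol were called as well, as most cytosolic genes were (13 of 19 lower in input and 16 in footprints).

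AARS2 (alanine) had footprints at 10.3, 15.2 and 14.5 CPM in DMSO and at 7.05, 9.86 and 6.96 CPM in trametinib, with input at 14.2, 22.5 and 28.6 CPM in DMSO and at 14.2, 16.2 and 12.7 CPM in trametinib. SARS2 (serine) had footprints at 17.5, 18.2 and 14.6 CPM in DMSO and at 12.0, 11.7 and 11.04 CPM in trametinib, with input at 10.2, 7.61 and 11.1 CPM in DMSO and at 4.45, 4.83 and 7.46 CPM in trametinib. Footprints of both did not overlap between treatments and were lower with trametinib, whereas only the input of SARS2 was without overlap. Their log2 changes in footprints were -0.74 ± 0.21 and -0.53 ± 0.14 (edgeR, adjusted p = 0.0172 and 0.0133).

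PARS2, the mitochondrial proline enzyme, rose in footprints, from 14.7, 16.2 and 14.3 CPM in DMSO to 23.8, 21.7 and 20.3 CPM in trametinib. Its input was at 17.2, 11.2 and 18.7 CPM in DMSO and at 18.2, 26.3 and 22.8 CPM in trametinib. The log2 change was 0.55 ± 0.13 in footprints (edgeR adjusted p = 0.00828) and 0.52 ± 0.25 in input, where it did not pass the test (edgeR adjusted p = 0.134). The mitochondrial genes called in neither assay had log2 changes in footprints from -0.39 (LARS2) to 0.54 (WARS2). With the replicate number as a block, LARS2, the leucine enzyme, was called lower in footprints too (-0.37, edgeR adjusted p = 0.0453), which made 6 mitochondrial genes in place of 5.

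Ribosome density, footprints over input, asks whether ribosomes per mRNA changed. None of the 19 cytosolic and 15 mitochondrial genes was called, by edgeR's test of the interaction of assay and treatment over all 12 libraries, beside 0.816% of all genes that were lower and 0.0938% that were higher. At an unadjusted p-value under 0.05 the number was 1 cytosolic and 0 mitochondrial genes, and DESeq2's likelihood ratio test called 1. The median log2 change was 0.01 in each compartment and 0.07 in all genes, and it moved to -0.00 in all genes with DESeq2 size factors. Scaling sets the libraries to a common level, so a shift in translation shared by all mRNAs would not appear here.

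QARS1, the glutamine enzyme and a member of the multisynthetase complex, had the largest change in density of the 34 tested genes. Its mRNA rose, from 411, 382 and 463 CPM in DMSO input to 598, 641 and 644 CPM in trametinib input (log2 change 0.58 ± 0.14, edgeR adjusted p = 0.0059). Its footprints were at 186, 268 and 223 CPM in DMSO and at 179, 200.1 and 192 CPM in trametinib and did not pass the test (log2 change -0.25 ± 0.14, edgeR adjusted p = 0.178). Footprint CPM over input CPM was 0.454, 0.700 and 0.483 in DMSO replicates 1, 2 and 3 and 0.299, 0.312 and 0.298 in trametinib, so that no dish of one treatment reached the range of the other.
The log2 change in density of QARS1 was -0.76 ± 0.19 and did not pass the test (edgeR adjusted p = 0.103). It passed in a replicate block fit with a term for each dish (-0.74, adjusted p = 0.0367), which takes input and footprints of 1 number as a pair, in DESeq2 (-0.83, adjusted p = 0.00356) and without both libraries of DMSO replicate 1 (-0.89, edgeR adjusted p = 0.0106). QARS1 also had the lowest density of the 19 cytosolic genes in DMSO.

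EPRS1, which carries the enzymes for glutamate and proline in 1 protein, had input at 650, 598 and 383 CPM in DMSO and at 440, 461 and 396 CPM in trametinib, with overlap between the treatments. Its footprints were at 975, 810 and 731 CPM in DMSO and at 434, 418 and 509 CPM in trametinib, without overlap. It was lower in footprints (log2 change -0.89 ± 0.14, edgeR adjusted p = 0.00114), and its density of 1.499, 1.355 and 1.91 in DMSO and 0.986, 0.905 and 1.29 in trametinib was lower in every trametinib dish, though the log2 change of -0.48 ± 0.25 did not pass the test (edgeR adjusted p = 0.638). IARS1, the isoleucine enzyme of the same complex, had the opposite order, with a density of 0.688, 0.700 and 0.862 in DMSO and 1.02, 1.15 and 0.983 in trametinib (log2 change 0.58 ± 0.27, edgeR adjusted p = 0.571). Its log2 change was -1.39 in input and -0.89 in footprints, both called.

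**Figure D3:**
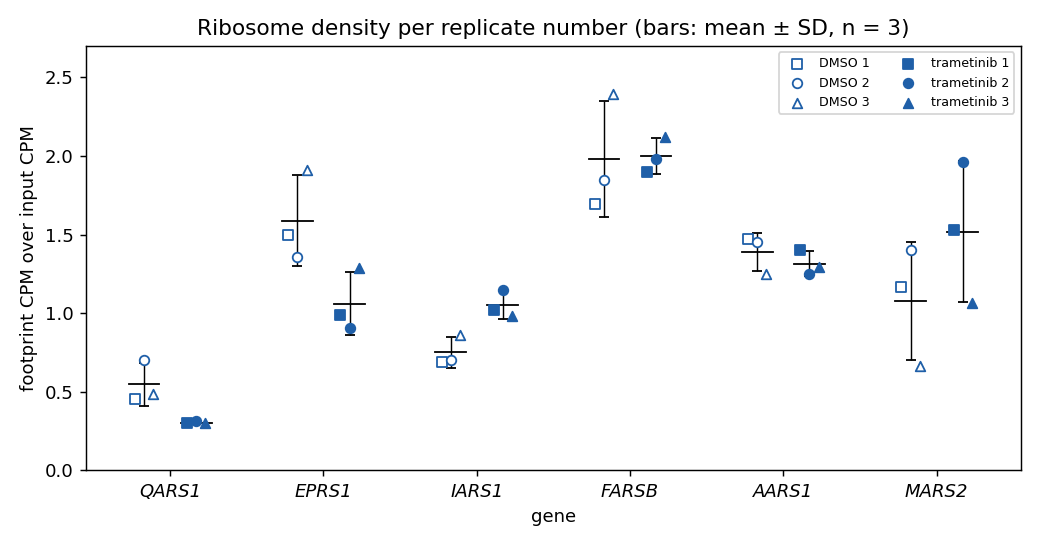
Ribosome density, footprint CPM over input CPM of the same treatment and replicate number, for 6 synthetase genes; open symbols are DMSO, filled symbols are trametinib, shapes give the replicate number and bars the mean ± SD of 3 dishes. QARS1 and EPRS1 lie lower and IARS1 higher with trametinib without overlap, FARSB and AARS1 overlap, and MARS2 is spread widely.

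The compartments were also set side by side within DMSO, with no test. The median input level per kilobase of coding sequence was 167 CPM over the cytosolic genes (from 65.6 in HARS1 to 344 in GARS1) and 16.6 CPM over the tested mitochondrial genes (from 6.21 in SARS2 to 95.4 in IARS2). The median footprint density was 1.35 in the cytosolic genes and 0.981 in the mitochondrial genes, beside 0.965 in all genes with quartiles of 0.597 and 1.47. The cytosolic range ran from 0.539 in QARS1 to 2.08 in HARS1 and the mitochondrial one from 0.574 in CARS2 to 1.74 in SARS2, so single members overlapped.

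DMSO replicate 1 was set apart because the integrated stress response was high in it. Of 19 tested non-synthetase genes of that response, 18 were at least 1.5-fold above the mean of DMSO replicates 2 and 3 in each assay. Among all genes tested 9.52% were in input and 9.03% in footprints. The dish was chosen for this response, so such counts are no independent evidence of it. The median log2 ratio of the 19 genes was 1.59 in input and 1.55 in footprints. The highest in footprints were ATF5, PPP1R15A, PCK2, TRIB3 and SLC7A11, at 7.10, 6.36, 5.63, 5.06 and 3.98 times that mean. ATF4 itself had footprints at 509, 258 and 118 CPM in DMSO replicates 1, 2 and 3. Replicates 2 and 3 were not alike in the 19 genes. Each set against the rest of DMSO in footprints, they had median log2 ratios of -0.56 (replicate 2) and -1.51 (replicate 3). A single dish has no replicate of its own, so no test was run and all ratios of this dish are descriptions.

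Many cytosolic synthetases were high in this dish too, and few mitochondrial ones were. At least 1.5-fold above the mean of replicates 2 and 3 were 10 of 19 cytosolic genes in input and 7 in footprints, and 1 of 15 mitochondrial genes in each, beside 9.52% of all genes in input and 9.03% in footprints. The median log2 ratio was 0.60 in input and 0.49 in footprints for the cytosolic genes, -0.25 and -0.33 for the mitochondrial genes, and -0.01 in both assays for all genes. Within the cytosol it was 0.93 and 0.82 for the 12 genes listed as ATF4-induced, of which 10 passed 1.5-fold in input and 7 in footprints. For the other 7 it was -0.13 and -0.23, and 0 passed in either assay. The list was drawn up with earlier results of these data known, so this contrast is no independent evidence.
In footprints DMSO replicate 1 held 3.56 times the mean of the other two for WARS1, 2.92 times for AARS1, 2.83 times for SARS1, 2.35 times for GARS1 and 2.16 times for YARS1. SARS1, the serine enzyme, was at 949, 353 and 318 CPM in DMSO footprints and at 218, 219 and 227 CPM in trametinib footprints, with input at 620, 271 and 208 CPM in DMSO and at 165, 176 and 172 CPM in trametinib. Its log2 change in footprints was -1.29 ± 0.37 with all DMSO dishes (edgeR adjusted p = 0.0186) and -0.60 without replicate 1 (edgeR adjusted p = 0.000133).
The lowest ratios in footprints were those of FARS2 and AARS2, mitochondrial enzymes for phenylalanine and alanine, at 0.689 and 0.693 times the mean of the other two. FARS2 footprints were at 13.1, 19.2 and 18.6 CPM in DMSO and at 17.8, 16.9 and 16.7 CPM in trametinib, and its input was at 13.9, 15.6 and 15.1 CPM in DMSO and at 16.2, 22.0 and 23.3 CPM in trametinib. Of the 15 mitochondrial genes 4 were above the mean of the other 2 dishes in footprints.
The mitochondrial gene past 1.5-fold in both assays was WARS2, the tryptophan enzyme, with footprints at 7.50, 3.74 and 3.44 CPM in DMSO and at 8.42, 7.62 and 5.45 CPM in trametinib. It was 2.09 times the mean of the other 2 DMSO dishes in footprints and 1.59 times in input, at low levels in both.

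**Figure D4:**
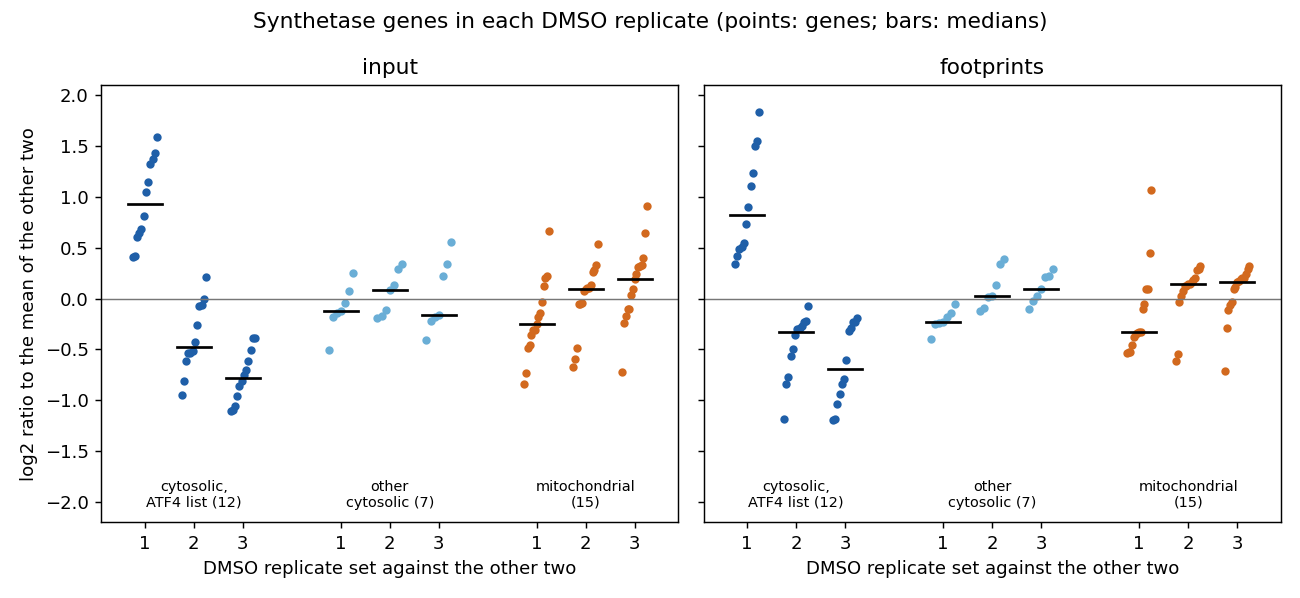
Log2 ratio of each DMSO replicate to the mean of the other two (vertical axis) for the 12 ATF4-induced cytosolic genes, the other 7 cytosolic genes and the 15 tested mitochondrial genes, in input (left) and footprints (right); points are genes and bars are medians. All 12 genes of the first list lie above 0 in replicate 1 in both assays, whereas the medians of the other 2 lists lie below 0.

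Without this dish the median fall of the cytosolic synthetases with trametinib was smaller, and most of them were still called lower. Without DMSO replicate 1, 12 of the 19 cytosolic genes were lower and 1 was higher in input, beside 18.0% and 16.6% of all genes, and 18 were lower and 0 higher in footprints, beside 30.5% and 29.8% of all genes. Of the mitochondrial genes 3 were lower and 0 higher in input, and 8 were lower and 2 higher in footprints. The cytosolic median log2 change in input moved from -1.01 to -0.68 and in footprints from -0.89 to -0.76, and that of the 12 ATF4-induced genes from -1.44 to -1.09 and from -1.37 to -0.92. The mitochondrial median moved from -0.10 to -0.16 and from -0.20 to -0.30.
Trametinib footprints stood at 27.4% of the DMSO mean for WARS1 and at 50.9% of the mean of replicates 2 and 3. For AARS1 these shares were 25.6% and 42.0%, for SARS1 41.0% and 66.0%, and for YARS1 22.0% and 30.5%. For FARSB they were 31.2% and 30.8%, nearly equal. WARS2 was higher in footprints with trametinib when replicate 1 was left out (log2 change 1.03, edgeR adjusted p = 0.00148) and did not pass the test with it (0.54, edgeR adjusted p = 0.179). FARSA (log2 change -0.30, edgeR adjusted p = 0.0119), QARS1 (-0.36, edgeR adjusted p = 0.00893), IARS2, LARS2 and YARS2 were called lower in footprints without the dish. In input AARS2 and LARS2 were called lower without it. These calls were not made with all libraries. LARS1 lost its call in input, with a log2 change of -0.57 with the dish and -0.34 without it (edgeR adjusted p = 0.0333 and 0.0867). NARS2 lost its call too, but its log2 change in input was nearly as large, -0.59 with the dish and -0.51 without it (edgeR adjusted p = 0.025 and 0.0504).

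**Figure D5:**
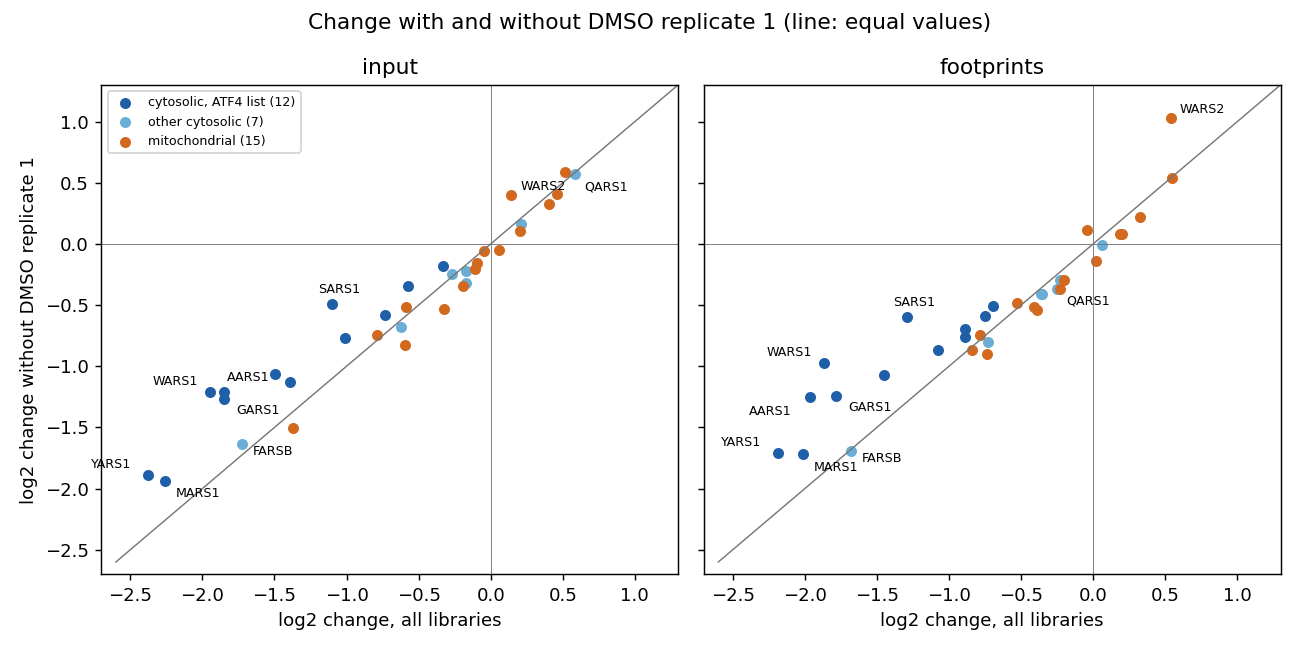
Log2 change of trametinib over DMSO with all libraries (horizontal axis) and without DMSO replicate 1 (vertical axis) for the 34 tested synthetase genes in input (left) and footprints (right); the line marks equal values. The ATF4-induced genes such as WARS1, AARS1 and SARS1 lie above the line, with smaller falls, and FARSB lies on or near it.

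Genes that work with the synthetases or are regulated with them complete the picture. The 14 partner genes listed include scaffold proteins of the complex, editing enzymes, the tRNA exporter and the mitochondrial amidotransferase. MTFMT, PTRH2, PSTK and SEPSECS, which belong to none of these kinds, are on the list as well. The 13 tested had median log2 changes of -0.17 in input and -0.31 in footprints. Of them 3 were lower in input and 5 in footprints, with 0 higher in either. These counts are near the shares of all genes that were lower, 16.8% in input and 25.6% in footprints. Of the 19 stress response genes 17 were lower in input and 17 in footprints, with medians of -2.08 and -2.68. Without DMSO replicate 1, where these genes were high, 15 and 17 were lower, beside 18.0% and 30.5% of all genes. The medians were then -1.40 and -1.67. ATF4 had log2 changes of -1.47 in input and -3.24 in footprints (edgeR adjusted p = 0.000156 and 0.000489), which became -1.20 and -2.58 without that dish, and MYC, a transcription factor downstream of ERK, of -0.74 and -1.08 (edgeR adjusted p = 0.00364 and 0.000306). A stressed endoplasmic reticulum induces its chaperones and some other genes, of which 12 were listed. XBP1 and HERPUD1 are on this list and are not chaperones. In input 1 of the 12, HERPUD1, was lower and 1 was higher, beside 16.8% and 15.4% of all genes. In footprints 1, again HERPUD1, was lower and 5 were higher, beside 25.6% and 23.9% of all genes. Without DMSO replicate 1, 3 of the 12 were lower and 6 higher in footprints, beside 30.5% and 29.8% of all genes. In DMSO replicate 1 itself, 4 of the 12 were at least 1.5-fold above the mean of replicates 2 and 3 in each assay. In each assay 1 other was at least 1.5-fold below it. Among all genes 9.52% were that far above it in input and 9.03% in footprints.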

How the data were processed

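The authors' deposited table, per the file headers, holds raw whole-number counts of 12 libraries, a normalized signal (each count over the size factor of its library), and fold changes and adjusted p-values of the authors, which were not used. Per the study's methods and the submitters' processing notes, the authors trimmed adapters, removed rRNA and tRNA reads with Bowtie 1.2.2, mapped to Gencode transcripts, counted reads inside reading frames of 1 gene symbol and used DESeq2 1.46.0. Input was counted on reading frames only. No sample column lay outside the 12 libraries.

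Raw counts were tested with edgeR 4.0.16 (R 4.3.3, quasi-likelihood, TMM scaling) over the 10663 genes that reached 10 counts in 3 or more input libraries. Input and footprints were fitted on 6 libraries each and ribosome density as the interaction of assay and treatment on 12. P-values were adjusted by Benjamini-Hochberg over all genes tested, and an adjusted p-value under 0.05 was called. CPM was scaled by TMM within each assay. Scripts were tested on simulated counts.

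According to the study's methods, input and footprints came from the same lysate. Over 7668 genes, which are not independent, Pearson's r between the deviations of an input library and its same-numbered footprint library was 0.818, 0.183 and 0.345 for DMSO replicates 1, 2 and 3, and 0.144, 0.0791 and -0.133 for the trametinib ones. Between same-numbered DMSO and trametinib dishes r was 0.118, 0.133 and 0.295 in footprints, over 0.1 in every pair, and 0.0687, 0.0497 and 0.347 in input, where it was not. The labels give only the equal numbers.

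All members and gene lists were chosen with earlier results of these data known. Values in every library are given for the 5 called members with the largest changes in input and in footprints per compartment, the 5 highest and 2 lowest members in DMSO replicate 1 footprints, GARS1, KARS1, EPRS1, WARS1, FARSA, FARSB, HARS1 and HARS2. QARS1, IARS1 and WARS2 were added after their values were seen. Alternatives were DESeq2 1.42.0 and its size factors, limma-trend (limma 3.58.1, prior count 2), other filters, the replicate number or the dish as a block, and leaving out each library. Some genes of the planned lists are not reported here.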

Additional observations from a re-analysis of the deposited data

How the results depend on the processing

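Of 323 values of a compartment under an alternative, 289 stayed within the spread between replicates or within 1.5 times of a count, and 34 moved. No called member turned direction in 456 values, and 36 lost the call. Among the alternatives that kept all libraries, DESeq2 left 1 mitochondrial gene lower in input (2 in edgeR; NARS2 and SARS1 lost the call), and DESeq2 and the replicate block with a term for each dish each called 1 cytosolic gene, QARS1, lower in ribosome density (0 in edgeR). With the replicate number as a block, the change of QARS1 was -0.75 (adjusted p = 0.0867). This block called LARS2 lower in footprints, where 6 mitochondrial genes were then lower, and changed no other call of the members tested. Leaving out GARS1 and KARS1 together could not change a median difference between the compartments. In every comparison these genes lay on opposite sides of the cytosolic median, so this setting tells nothing about genes that serve both compartments.

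Leaving out 1 library at a time moved the cytosolic median in input between -1.22 and -0.68 and the cytosolic minus mitochondrial difference between -1.14 and -0.53, with the smallest size in each without DMSO replicate 1. Mitochondrial genes called lower numbered 1 to 3 in input and 3 to 8 in footprints (8 without DMSO replicate 1), and those called higher 0 to 1 in input and 0 to 2 in footprints. In ribosome density, cytosolic genes called lower ranged from 0 to 1, the cytosolic median from -0.22 to 0.21, the mitochondrial median from -0.11 to 0.090 and their difference from -0.31 to 0.30, so the sign of the density medians was not fixed by these data. The ends of the cytosolic and difference ranges came from leaving out only the input or only the footprint library of DMSO replicate 1. Without both libraries of that dish the cytosolic median was -0.0094, the mitochondrial median -0.0066 and their difference -0.0028. Calls of SARS1 in both assays, LARS1 and NARS2 in input, and HARS1, KARS1, AARS2 and EARS2 in footprints were lost in turn without at least 2 of the 3 trametinib libraries, and that of PARS2 without trametinib replicate 1. Leaving out DMSO replicate 1 ended the calls of LARS1 and NARS2 in input, replicate 2 those of LARS1 in input and KARS1, AARS2 and EARS2 in footprints, and replicate 3 those of HARS1, KARS1, AARS2 and EARS2 in footprints. Uncalled members turned direction: in input FARSA (-0.32 to 0.041), IARS2 (-0.16 to 0.0037), RARS2 (-0.12 to 0.047), TARS2 (-0.053 to 0.14) and WARS2 (-0.049 to 0.40), and in footprints RARS1 (-0.030 to 0.15), FARS2 (-0.14 to 0.12) and RARS2 (-0.21 to 0.12). The cause of these moves was not tested.

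With DMSO replicate 2 or 3 set apart in place of replicate 1, the cytosolic median log2 ratio was -0.17 and -0.50 in input and -0.23 and -0.23 in footprints, and the mitochondrial one was 0.10 and 0.19 in input and 0.14 and 0.16 in footprints. Depth limits the weakest members, such as WARS2 and SARS2 in input.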
